A study of Rattus norvegicus with 6 samples.

Results

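Myelin is the layered membrane that oligodendrocytes wrap around axons, and 9 of the genes that build it are described here in the cells of the rat hippocampus: Mbp, Mog, Mag, Mobp, Cnp, Cldn11, Mal, Ermn and Opalin. They were chosen by name from the 30452 genes of the deposited matrix, and each symbol matched 1 row. Hippocampi of male rats gave 6 samples, 3 labelled as irradiated with 20 Gy to the whole brain 2 months earlier and 3 labelled as controls. Tissue was digested, strained, freed of red cells and of dead cells and loaded for 3′ single-cell sequencing, with no sort for any cell type. The strain, the age, any sham procedure and the number of rats in a sample were not given in the sources used here. The barcodes fall into 6 libraries, marked 1 to 6, and none of them could be tied to a labelled sample, so irradiated and control rats were not compared. All values describe the pooled cells as 1 sample, or single libraries with no group, and no test was run.

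Oligodendrocytes arise from dividing precursors that pass through a short newly formed stage before they wrap axons. As they mature they switch on genes for proteins that pack the membrane layers together, hold the sheath to the axon and seal its edges, under the control of factors such as SOX10 and MYRF. Their messenger RNA is abundant, so broken oligodendrocytes are a known source of stray RNA in suspensions of brain cells, and microglia and astrocytes can also take up myelin.

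Of 45393 cells kept, 838 were mature oligodendrocyte-like, 83 were newly formed oligodendrocyte-like and 151 were oligodendrocyte precursor-like. The 9 genes were left out both of the genes used to group the cells and of the markers used to name the groups. All 11 markers of mature oligodendrocytes passed in the mature class. Levels are given as CPM, the count of unique molecular identifiers (UMIs) scaled to a common total per class. The newly formed class held Enpp6 at 645 CPM, Gpr17 at 323 CPM and Bcas1 at 2282 CPM, and the precursor class held Pdgfra at 1830 CPM. The libraries held 46853113 to 62094407 UMIs and gave 5462 to 9678 kept cells with median depths of 4198 to 6481 UMIs. Mature oligodendrocyte-like cells made up between 0.439% of kept cells in library 6 and 3.97% in library 5. Of 57663 barcode sequences, 410 occurred in more than 1 library, and leaving these cells out moved no value beyond its counting interval.

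The matrix counts 3′ ends, so levels below are compared for the same gene between classes and not between genes. Brackets and ranges called counting intervals are exact 95% Poisson intervals for CPM and exact 95% binomial intervals for shares. They cover counting error only, not the spread between animals.

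Promoter windows are shown first for 4 of the genes, those whose window holds the letters CTGGCAC on either strand. Cnp and Mag stood at 77.3% and 49.6% of their mature level in newly formed cells, and Mal and Opalin at 3.67% and 6.24%. Mbp, Mobp and Cldn11, whose windows lack the letters and are not shown, stood at 53.5%, 5.99% and 71.9%. The RefSeq table for the rat build GRCr8 held a window of 300 bases for 7 of the 9 genes, all but Mog and Ermn, running from 250 bases before to 50 bases after the annotated start. The letters CTGGCAC, which is the core of the published MYRF motif, or their reverse complement GTGCCAG, stood in 4 of these 7 windows, against 4.75% of all 33469 windows in the table. The 4 windows are printed 5′ to 3′ on the gene's strand, with those letters in capitals. They stand for Mag at chr1:95290995-95291294 on the minus strand, Opalin at chr1:249858141-249858440 on the minus strand, Mal at chr3:135341374-135341673 on the minus strand and Cnp at chr10:86011254-86011553 on the plus strand.
Mag: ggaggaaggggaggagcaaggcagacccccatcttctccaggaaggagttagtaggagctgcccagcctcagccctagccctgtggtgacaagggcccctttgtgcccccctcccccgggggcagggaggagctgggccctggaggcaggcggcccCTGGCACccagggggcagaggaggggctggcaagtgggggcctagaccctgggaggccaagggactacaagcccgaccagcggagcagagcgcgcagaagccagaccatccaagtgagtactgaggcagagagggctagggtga
Opalin: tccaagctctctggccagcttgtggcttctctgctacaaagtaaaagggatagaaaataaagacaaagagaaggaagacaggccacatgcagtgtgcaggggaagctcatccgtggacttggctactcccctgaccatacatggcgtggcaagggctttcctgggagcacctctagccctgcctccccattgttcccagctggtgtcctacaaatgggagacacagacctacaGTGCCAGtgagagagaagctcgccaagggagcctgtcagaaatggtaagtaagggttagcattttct
Mal: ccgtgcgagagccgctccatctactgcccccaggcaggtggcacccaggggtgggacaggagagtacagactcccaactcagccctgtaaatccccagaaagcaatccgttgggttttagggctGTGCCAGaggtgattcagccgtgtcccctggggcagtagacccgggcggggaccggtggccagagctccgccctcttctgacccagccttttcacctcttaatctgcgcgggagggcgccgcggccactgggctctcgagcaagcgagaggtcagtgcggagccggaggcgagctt
Cnp: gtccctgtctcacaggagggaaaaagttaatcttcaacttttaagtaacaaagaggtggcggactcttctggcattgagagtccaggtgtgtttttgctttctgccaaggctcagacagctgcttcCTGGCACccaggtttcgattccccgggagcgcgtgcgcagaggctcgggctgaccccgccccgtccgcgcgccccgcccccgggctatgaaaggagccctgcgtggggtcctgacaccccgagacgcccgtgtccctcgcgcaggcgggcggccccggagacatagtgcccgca
The letters began 94 bases before the start in Mag, 17 in Opalin, 126 in Mal and 124 in Cnp. They were absent from the windows of Mbp, Mobp and Cldn11, which says only that those windows do not hold them. On either strand, ACAAAG, a core bound by the SOX family, stood in the windows of 5 of the 7 genes against 18.8% of all windows, and ACAATG, another SOX core, in 2 against 13.2%. The E-box CAGCTG stood in 3 of the 7 against 15.1% and the TATA box letters TATAAA in 0 against 14.2%. These letters are a description of short windows and were not tested against chance or against the levels.

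All 9 genes were highest in the mature oligodendrocyte-like cells. Their UMIs together made up 27668 CPM there, and 61.96% of all 213188 UMIs of the 9 genes in kept cells came from this class, which held 1.85% of the cells. Each of the 9 was at least 4-fold above the median of the other classes of at least 100 cells, with 10 CPM added to both sides, a bound that 3.64% of 15671 genes passed. The median log2 ratio of the 9 was 6.77, beside 0.00 over all genes.

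**Figure D1:**
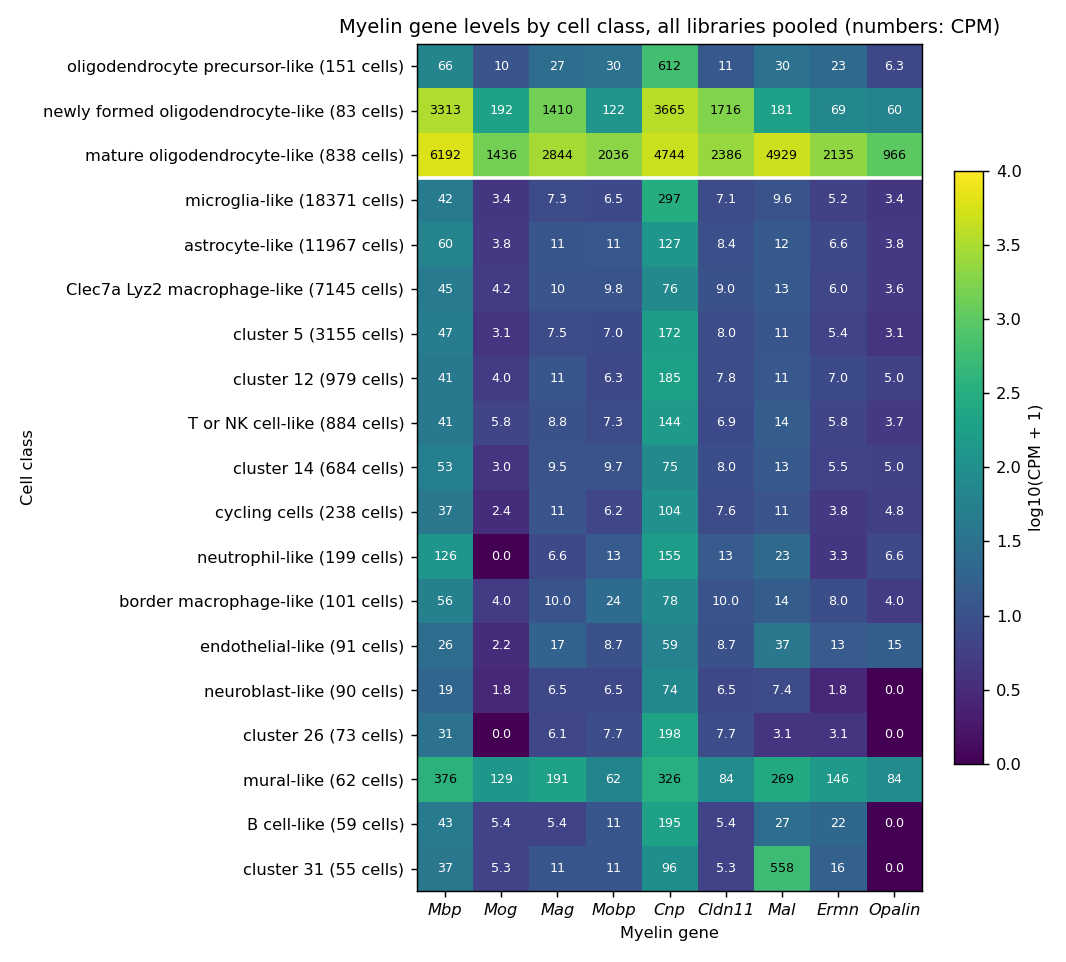
Level of each myelin gene (columns) in each cell class of at least 50 cells (rows), all libraries pooled. Colour is log10(CPM + 1) and the printed number is the CPM. The white line divides the 3 classes of the oligodendrocyte line from the rest. The mature row is bright for all 9 genes, the newly formed row for Mbp, Mag, Cnp and Cldn11, and the mural-like row rests on 2 cells.

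Among the genes of the compacted sheath, Mbp, whose protein glues the inner faces of the membrane together, reached 6192 CPM in mature cells, against 42.1 CPM in microglia-like and 60.3 CPM in astrocyte-like cells. Mobp, a second small basic protein of compact myelin, reached 2036 CPM in mature cells, against 6.53 CPM in microglia-like and 11.3 CPM in astrocyte-like cells. Mal, a proteolipid that sorts membrane vesicles and is also known from T cells, had the highest log2 ratio of the 9, 7.77. It stood at 4929 CPM in mature cells and at a median of 12.6 CPM in the other classes. In all 3 genes the mature level stood far outside the counting interval of every other class.

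Among the surface and adhesion genes, Mag, a lectin on the membrane that faces the axon, reached 2844 CPM in mature cells, against 7.33 CPM in microglia-like and 10.6 CPM in astrocyte-like cells. Mog, an immunoglobulin-type protein on the outermost layer, reached 1436 CPM in mature cells, against 3.44 CPM in microglia-like and 3.78 CPM in astrocyte-like cells. Opalin, a membrane glycoprotein of oligodendrocytes, reached 966 CPM in mature cells, against 3.37 CPM in microglia-like and 3.84 CPM in astrocyte-like cells. Within the astrocyte-like class these levels differed by cluster: in cluster 11, with 1136 cells, Mag was 60.9 CPM, Mog 22.4 CPM and Opalin 12.1 CPM.

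Among the genes of junctions and cytoskeleton, Cldn11, a claudin of the tight junctions between the turns of the sheath, reached 2386 CPM in mature cells, against 7.10 CPM in microglia-like and 8.43 CPM in astrocyte-like cells. Ermn, which encodes an actin-binding protein of the oligodendrocyte cytoskeleton, reached 2135 CPM in mature cells, against 5.24 CPM in microglia-like and 6.62 CPM in astrocyte-like cells. Cnp, a cyclic nucleotide phosphodiesterase of the uncompacted parts of myelin, reached 4744 CPM in mature cells but also 297 CPM in microglia-like and 127 CPM in astrocyte-like cells. Its log2 ratio of 4.95 was the lowest of the 9.

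The share of each gene's UMIs that came from mature cells put Cnp apart in the same way. It was 88.0% for Mal, 86.5% for Ermn, 86.1% for Mog, 82.4% for Opalin, 80.6% for Mobp, 80.4% for Mag and 77.9% for Cldn11. For Mbp it was 66.7%, with 10.7% in astrocyte-like and 8.92% in microglia-like cells. For Cnp it was 30.96%, less than the 38.2% that came from the far more numerous microglia-like cells.

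The 9 genes were found together in single mature cells. Of the 838 cells, 93.4% held at least 1 UMI of all 9 genes, the median was 9 and the lowest was 6. The genes made up a median of 2.76% of a mature cell's UMIs, with quartiles of 2.45% and 3.08%. Mbp and Mag were found in all 838 cells, while Opalin was missed in 32, Ermn in 10 and Mobp in 9. With every cell thinned to 2000 UMIs, which left out 16 mature cells, Opalin was found in 81.9% and Mog in 93.7% of them and the other 7 genes in 95.6% to 100%. In T or NK cell-like cells, which should lack Opalin and Mog, Opalin was found in 0.473% and Mog in 1.07% of cells at the same depth. Unthinned, Opalin was found in 96.2% of mature cells at a median of 5384 UMIs and in 1.92% of T or NK cell-like cells at a median of 4379 UMIs.

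Between mature cells, the upper quartile of a gene's level was 1.6 times the lower quartile for Mbp, Mag and Cnp and 2.3 times for Opalin, the gene with the fewest UMIs. The remaining genes lay between, at 1.8 to 2.0 times. These spreads include the counting error of single cells.

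Over the 6 libraries, the summed level in mature cells lay between 25738 CPM in library 4 and 28383 CPM in library 3, a highest value 1.103 times the lowest, the smallest such ratio of the 8 classes in which it was set out by library. The single genes moved more than their sum, and library 3 was the one that stood apart. Mbp was 7717 CPM in library 3, against 5989, 5724, 5862, 5893 and 5788 CPM in libraries 1, 2, 4, 5 and 6. Cnp was 5962 CPM in library 3, against 4772, 4923, 3798, 4339 and 4577 CPM in the same libraries. Cldn11 was 2860 CPM in library 3, against 2435, 2156, 2050, 2379 and 2194 CPM.

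Mobp, Mal and Ermn ran the other way in library 3. Ermn was 1345 CPM there, against 2365, 2612, 2048, 2204 and 2325 CPM in libraries 1, 2, 4, 5 and 6. Mobp was 1326 CPM, against 2416, 1996, 2331, 2204 and 2235 CPM. Mal was 3511 CPM, against 5434, 4834, 4815, 5559 and 4847 CPM. Library 3 was thus the highest of the 6 for Mbp, Mog, Mag, Cnp and Cldn11 and the lowest for Mobp, Mal and Ermn.

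Mag and Mog were closer together. Mag was 3122 CPM in library 3, against 2572, 2674, 2837, 2876 and 2833 CPM in libraries 1, 2, 4, 5 and 6, and Mog was 1666 CPM against 1289, 1380, 1285, 1440 and 1375 CPM. Opalin was the exception to the split, at 873 CPM in library 3 within the range of 712 to 1071 CPM of the others. Taking a 1.5-fold difference from the median of the other 5 libraries, 2 of the 9 genes, Mobp and Ermn, were lower in library 3. In that library 16.3% of 7572 genes were lower and 7.42% were higher by the same bound, so the count is not read as particular to the 9 genes. None of the 9 passed this bound in either direction in the other libraries. There, 2.56% of genes were higher and 6.52% lower in library 1, 2.01% and 2.93% in library 2, 7.14% and 3.06% in library 4, 1.98% and 0.674% in library 5, and 8.7% and 19.9% in library 6. The log2 difference was -0.75 for Mobp, -0.79 for Ermn and 0.40 for Mbp. The mature cells of library 3 were also the shallowest, with a median of 4004 UMIs against 5166 to 6130 UMIs in the others, and the part of depth in these differences was not tested. With libraries tied to no animal, a difference of 1 library cannot be told apart from one of its sample or its handling.

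**Figure D2:**
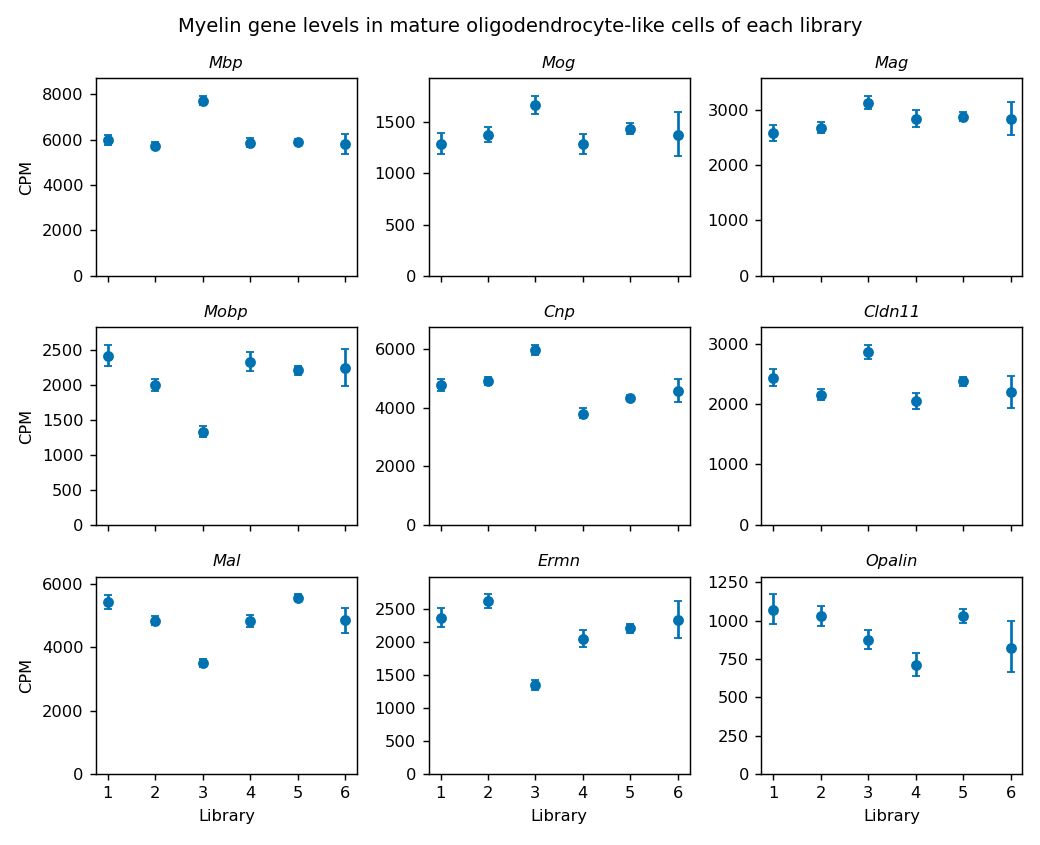
Level (CPM, axis from 0) of each myelin gene in the mature oligodendrocyte-like cells of libraries 1 to 6. Points are the pooled cells of a library and bars are exact 95% Poisson intervals for counting error. Library 3 is the highest point for Mbp, Mog, Mag, Cnp and Cldn11 and the lowest for Mobp, Mal and Ermn.

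In newly formed oligodendrocyte-like cells the 9 genes split into 4 that stood at 49.6% or more of their mature level and 5 that stood at 13.4% or less. All 9 passed the 4-fold bound over the other classes, which 3.5% of genes passed in this class, with a median log2 ratio of 3.87. The calls of the low genes, and that of Cnp when cells were named by marker score, depended on how the class was drawn. With cells named one by one by their highest marker score, which put 917 cells in the class, Mog, Mobp, Cnp, Mal, Ermn and Opalin did not pass. Mal and Opalin did not pass at a mitochondrial limit of 10%, nor did Mal, Ermn and Opalin with doublet-like barcodes kept. Mobp did not pass in thinned cells, Mal without library 5, and Ermn and Opalin in the cells without a P2ry12 UMI. Cnp was 3665 CPM in newly formed cells and 4744 CPM in mature cells, Cldn11 was 1716 CPM and 2386 CPM, Mbp 3313 CPM and 6192 CPM, and Mag 1410 CPM and 2844 CPM. Mog was 192 CPM in newly formed cells and 1436 CPM in mature cells. Mal was 181 CPM in newly formed cells and 4929 CPM in mature cells, Mobp 122 CPM and 2036 CPM, Ermn 69.05 CPM and 2135 CPM, and Opalin 60.2 CPM and 966 CPM.

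As a share of the mature level of the same gene, Cnp stood at 77.3%, Cldn11 at 71.9%, Mbp at 53.5% and Mag at 49.6%. Mog stood at 13.4%, Opalin at 6.24%, Mobp at 5.99%, Mal at 3.67% and Ermn at 3.23%. The split held in each of the 4 libraries with at least 10 newly formed cells, which held 20, 22, 11 and 26 of the 83 cells in libraries 1, 2, 4 and 5. Mag, the lowest of the first set in libraries 1 and 2, was 25.8%, 56.2%, 89.8% and 40.8% of the mature level of the same library, from library 1 to 5. Mog, the highest of the second set in each of the 4, was 5.34%, 14.1%, 20.8% and 17.9%. Ermn was 0.265%, 2.86%, 5.42% and 4.56%, and Mal 0.576%, 1.55%, 1.23% and 10.2%.

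The lowest share of the first set therefore lay above the highest of the second in every one of these libraries. Where Mbp was the lowest of the first set, it was 79.6% in library 4 and 31.6% in library 5. Mal rested most on 1 library: without library 5 its pooled level in newly formed cells was 63.3 CPM. It was 27.0 CPM at a mitochondrial limit of 10% and 42.3 CPM with doublet-like barcodes kept, and Opalin was 13.5 CPM with them kept. With cells named one by one by their highest marker score, all 9 genes were lower in the newly formed class, Mag at 112 CPM and Cnp at 615 CPM. The first set rested in part on 2 cells, with 830 and 560 UMIs of the 9 genes. Without them Mag was 979 CPM, Cldn11 1277 CPM, Mbp 2834 CPM and Cnp 3542 CPM. Mog was then 157 CPM and Mobp 99.8 CPM, while Mal, Ermn and Opalin, at 192, 73.3 and 63.9 CPM, were slightly higher. Libraries 3 and 6 held 3 and 1 newly formed cells and are not given.

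**Figure D3:**
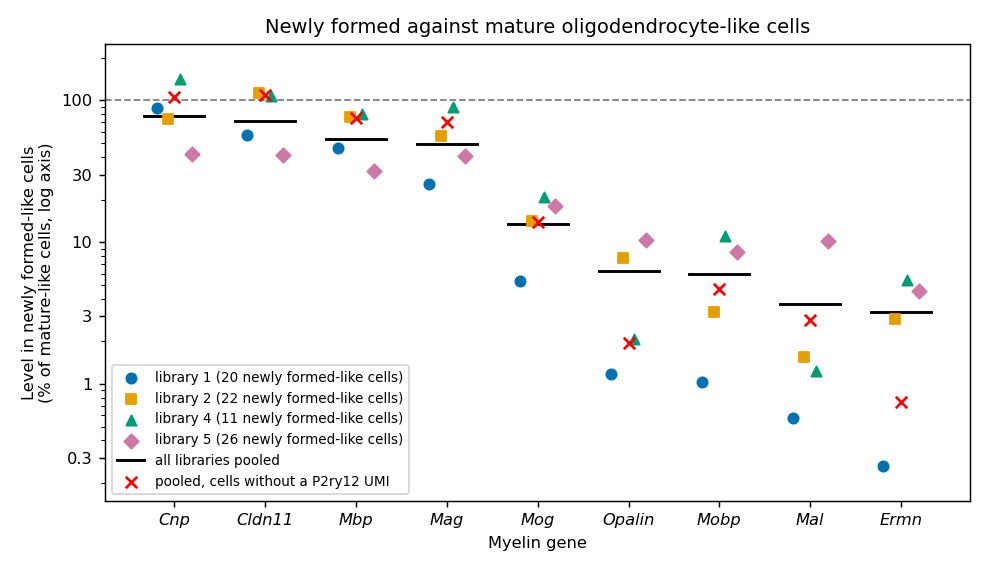
Level of each myelin gene in newly formed oligodendrocyte-like cells as a percent of its level in mature oligodendrocyte-like cells (log axis). Coloured points are the 4 libraries with at least 10 newly formed cells, black bars all libraries pooled and red crosses the 49 newly formed cells without a P2ry12 UMI. The dashed line marks the mature level. Cnp, Cldn11, Mbp and Mag lie at 25.8% or more in each library, and the other 5 genes at 20.8% or less.

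The newly formed class also held microglial RNA. P2ry12, a receptor of microglia, was 188 CPM there and 26.4 CPM in mature cells, and 34 of the 83 cells held a UMI of it. In the 49 cells without one, Cldn11 was 109%, Cnp 105%, Mbp 75.5% and Mag 70.3% of the mature level, while Mog was 13.9%, Mobp 4.71%, Mal 2.81%, Opalin 1.93% and Ermn 0.748%. In the 34 cells with one, Cnp was 42.8%, Cldn11 26.6%, Mbp 26.5%, Mag 24.1%, Mog 12.8%, Opalin 11.5%, Mobp 7.56%, Ermn 6.29% and Mal 4.72%. The distance between the sets was thus wider in the cells without P2ry12. Those cells need not be free of microglial or macrophage RNA. Lyz2, a marker of the Clec7a Lyz2 macrophage-like class, was found in 62.7% of the 83 cells, at 1285 CPM. It was 208 CPM in mature and 1411 CPM in microglia-like cells. Whether droplets with a pair of cells lie behind the mixed profile was not tested.

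Single newly formed cells varied more than mature ones. They held a median of 5 of the 9 genes, and the genes made up a median of 0.688% of their UMIs, with quartiles of 0.303% and 1.29%. Their median depth was 8344 UMIs. Thinned to 2000 UMIs, Cnp was found in 81.6% of 76 newly formed cells, Mbp in 67.1%, Mag in 59.2% and Cldn11 in 51.3%, while Mog was found in 21.1%, Mal in 19.7%, Mobp in 13.2%, Opalin in 11.8% and Ermn in 6.58%. The same order of sets was therefore seen in shares of cells as in levels. In thinned T or NK cell-like cells the shares were 24.0% for Cnp, 8.40% for Mbp, 1.89% for Mag, 1.07% for Mog, 2.13% for Mal and 0.473% for Opalin.

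In oligodendrocyte precursor-like cells, of the 9 genes only Cnp passed the 4-fold bound, which 6.01% of all genes passed in this class. Cnp was 612 CPM in precursor cells, with 595, 654, 619, 670 and 536 CPM in libraries 1, 2, 4, 5 and 6, and it was found in 86.1% of the 151 cells. Library 3 held 0 precursor-like cells. The log2 ratio lay close to the bound: without the 2 cells that held the most UMIs of the 9 genes, Cnp was 580 CPM and no longer passed, nor did it pass under 6 other settings or with any of 4 libraries left out.

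The other 8 genes stood between 6.34 CPM for Opalin and 66.0 CPM for Mbp in precursor cells, and these levels rested on 1 cell with 112 UMIs of the 9 genes, which held UMIs of all of them. Without the 2 top cells Mbp was 25.9 CPM, Mal 12.9 CPM, Mobp 10.4 CPM, Ermn 9.06 CPM, Mag and Cldn11 5.18 CPM each, Mog 3.88 CPM and Opalin 2.59 CPM. Those values were of the same size as in T or NK cell-like cells, at 40.7 CPM for Mbp, 14.2 CPM for Mal, 8.83 CPM for Mag and 3.66 CPM for Opalin.

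Within the 3 classes of the line, cells were also divided by UMIs of genes other than the 9. The division was by whether Pdgfra or Cspg4, markers of precursors, was found, and by at least 10 UMIs of the newly formed markers. These markers had also served to name the classes, so the division is not independent of the names. The cut of 10 UMIs was not scaled to depth. In the 61 cells with a precursor marker and at least 10 such UMIs, Cnp was 1840 CPM, Mbp 893 CPM and Mal 132 CPM. In the 79 cells with no precursor marker and at least 10, Cnp was 4825 CPM, Mbp 5391 CPM and Mal 2477 CPM. In the 812 cells with neither, Cnp was 4595 CPM, Mbp 6015 CPM and Mal 4776 CPM. Cldn11 was 2543 CPM in the 79 cells and 2309 CPM in the 812, and Ermn was 1288 CPM and 2027 CPM. The 79 cells were a mix of 40 newly formed-like and 39 mature-like cells, so these levels are an average over both classes. The 120 cells with a precursor marker and fewer than 10 newly formed UMIs included 13 mature-like cells and held Mal at 659 CPM.

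Outside the line, 7 of the 9 genes (Mog, Mag, Mobp, Cldn11, Mal, Ermn and Opalin) stood at low levels in all large classes, with library 5 the highest and library 6 the lowest in microglia-like, astrocyte-like and T or NK cell-like cells. None of the 9 passed the 4-fold bound in microglia-like cells, where 0.434% of genes did, in the astrocyte-like class, where 4.88% did, or among T or NK cell-like cells, where 1.9% did. None passed in Clec7a Lyz2 macrophage-like cells (0.51% of genes), cluster 5 (0.383%), cluster 12 (0.325%), cluster 14 (0.625%), cluster 26 (1.12%), cycling cells (1.31%), neutrophil-like (2.12%), border macrophage-like (0.836%), endothelial-like (3.68%), neuroblast-like (4.13%) or B cell-like cells (1.06%). Summed, the 7 genes were 42.6 CPM in microglia-like cells, while astrocyte-like cells held 57.0 CPM and T or NK cell-like cells 52.6 CPM. From library 1 to 6 they were 24.2, 71.9, 28.8, 28.0, 142 and 3.72 CPM in microglia-like cells. In astrocyte-like cells they were 31.05, 62.1, 42.5, 63.1, 84.3 and 14.6 CPM, while T or NK cell-like cells held 14.1, 63.0, 23.5, 19.7, 145 and 11.05 CPM.

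The astrocyte value rested in part on cluster 11, where the 7 genes summed to 252 CPM, against 39.1 to 99.2 CPM in the other 5 astrocyte-like clusters. Of its 1136 cells, 1066 came from library 4. Without cluster 11 the 7 genes were 46.9 CPM in astrocyte-like cells, and 30.3, 61.2, 41.7, 29.9, 83.6 and 14.6 CPM from library 1 to 6, so that library 4 no longer stood second.

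Library 5 also had the largest share of mature oligodendrocyte-like cells, 3.97%, and library 6 the smallest, 0.439%. The libraries between did not keep that order: library 3 had the second largest share, 2.01%, and lay below library 2, with 1.75%, in all 3 classes. Among single genes, Mag was 20.5 CPM in microglia-like, 23.1 CPM in Clec7a Lyz2 macrophage-like, 15.1 CPM in astrocyte-like and 27.5 CPM in T or NK cell-like cells of library 5. In library 6 the levels were 0, 1.52, 1.12 and 3.68 CPM in the same classes. Microglia-like cells of library 6 numbered 74, and the counting interval of 0 UMIs there reaches 13.7 CPM. The 7 genes rested on 1 UMI in these cells and on 6 UMIs in the T or NK cell-like cells of library 6, so levels there are known only coarsely.

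**Figure D4:**
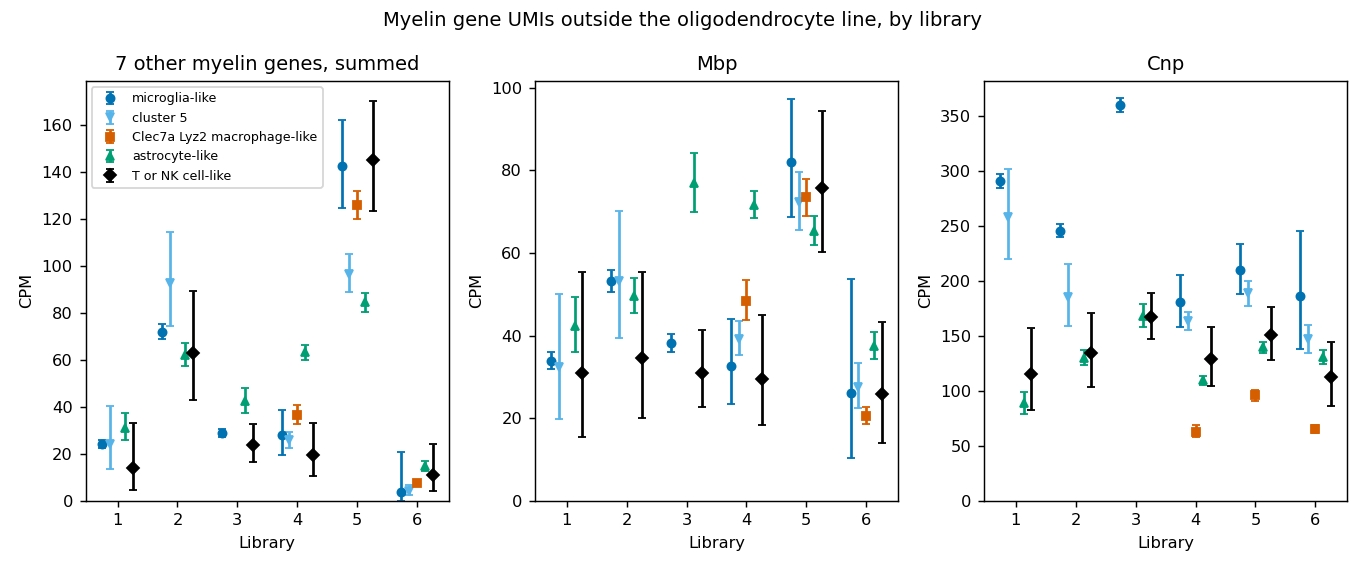
Level (CPM) of the 7 myelin genes other than Mbp and Cnp summed (left), of Mbp (middle) and of Cnp (right) in 5 cell classes of libraries 1 to 6. Points are the pooled cells of a class in a library, for classes with at least 50 cells there, and bars are exact 95% Poisson intervals. The 7 genes are highest in library 5 and lowest in library 6 in every class shown, Mbp stays at 20.6 CPM or more in library 6, and Cnp is highest in microglia-like cells of every library.

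Cnp did not follow this pattern. From library 1 to 6 it was 291, 246, 360, 181, 210 and 186 CPM in microglia-like cells. It was 88.6, 130, 168, 110, 139 and 131 CPM in astrocyte-like cells and 116, 134, 167, 129, 151 and 112 CPM in T or NK cell-like ones. The microglial class was higher than T or NK cell-like cells in all 6 libraries. In Clec7a Lyz2 macrophage-like cells Cnp was 62.9, 95.9 and 65.1 CPM in libraries 4, 5 and 6, below the other 3 classes in each. In cluster 5, which carried 10 of 12 microglia markers but no clear name, it was 172 CPM.

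At equal depth the order of classes was kept. Thinned to 2000 UMIs, Cnp was found in 42.8% of microglia-like cells (42.0% to 43.5%), 22.0% of astrocyte-like cells (21.2% to 22.8%), 14.0% of Clec7a Lyz2 macrophage-like cells (13.1% to 14.8%) and 24.0% of the T or NK cell-like cells (21.2% to 27.0%). Unthinned, it was found in 68.1% of microglia-like cells at a median of 4691 UMIs and in 49.4% of T or NK cell-like cells at a median of 4379 UMIs. Of the UMIs of the 9 genes, Cnp made up 77.8% in microglia-like cells, 52.0% in the astrocyte-like class and 60.6% in the T or NK cell-like class, against 17.1% in mature oligodendrocyte-like cells of the same suspensions. Within the class, the 4 microglia-like clusters held between 263 and 392 CPM of Cnp.

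Mbp lay between these patterns. In library 6 it was 26.0 CPM in microglia-like, 37.4 CPM in astrocyte-like, 20.6 CPM in Clec7a Lyz2 macrophage-like and 25.8 CPM in T or NK cell-like cells, where Mog and Mag were between 0 and 3.68 CPM. Among the UMIs of the 8 genes other than Cnp, Mbp made up 71.9% in astrocyte-like cells, 73.3% in the Clec7a Lyz2 macrophage-like class and 70.0% among T or NK cell-like cells of library 6, against 25.8% in its mature cells. In library 5 it made up 43.7%, 36.9% and 34.3% in the same classes, against 24.99% in mature cells. Newly formed cells of library 5 held 35.7% (32.4% to 39.0%), a range that takes in the macrophage-like and T or NK cell-like values of that library. The surplus of Mbp over the ratio seen in mature cells was thus present in each of these classes, T or NK cell-like cells included. Whether it comes from other transcripts of the Mbp locus, which are known from immune cells, was not tested.

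Cells outside the line that held many myelin UMIs differed between classes in their makeup. At least 10 UMIs of the 9 genes were found in 76 of 18371 microglia-like cells, at a median depth of 10504 UMIs, and 83.2% of those UMIs were Cnp. In astrocyte-like cells 67 of 11967 reached 10 UMIs, at a median depth of 10991 UMIs, and Cnp made up 29.2%. Of these 67 cells, 41 held at least 5 of the 9 genes.

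At least 10 UMIs were also found in 4 Clec7a Lyz2 macrophage-like cells, and among T or NK cell-like cells in 2. Microglia-like cells with at least 5 of the 9 genes numbered 8 of 18371, or 0.0435%, beside 0.226% of T or NK cell-like and 0.794% of astrocyte-like cells. Doublet droplets, stray RNA and engulfed RNA cannot be told apart in these counts.

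In 2 small classes members passed the 4-fold bound. In mural-like cells 7 of the 9 passed, where 4.01% of genes did, but 2 of the 62 cells held 144 and 119 of the 297 UMIs of the 9 genes. Without these cells the summed level was 208 CPM, against 1667 CPM with them. Cluster 31, a group of 55 cells led by Retnlg, S100a6, Fcnb, Fn1 and Ly6c, met the naming rule of no class. In it only Mal passed, where 1.54% of genes did. Mal was 558 CPM (457 to 676) there and was found in 28 of the 55 cells. Mbp was 37.2 CPM, Mag 10.6 CPM and Opalin was at 0 UMIs, with a counting interval of up to 19.6 CPM. The leading genes came from part of the cluster: Retnlg was found in 7.27% of its cells, Fn1 in 29.1% and Ly6c in 47.3%. Lyz2 was found in 81.8% of its cells, at 9408 CPM.

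Of 22 further genes of myelin structure and lipid synthesis, 20 passed the 4-fold bound in mature cells, 12 in newly formed cells and 10 in precursor cells, beside the 3.64%, 3.5% and 6.01% of all genes, and 4 of the 22 had served as class markers. Among the highest log2 ratios in mature cells were those of Apod, a lipid-binding lipocalin, at 8.04, Cryab, a small heat shock protein, at 6.74 and Pllp, a plasma membrane proteolipid, at 6.60. The lowest were Tppp, a tubulin-binding protein, at 1.53 and Aspa, the enzyme that splits N-acetylaspartate, at 0.84. Tppp was 19.1 CPM in mature cells against a median of 0.0426 CPM in the other classes, and Aspa 415 CPM against 228 CPM. The 10 CPM added to both sides hold down the ratio of a gene at low levels, as for Tppp. The median log2 ratio of the 22 was 4.97 in mature cells, 2.47 in newly formed cells and 1.55 in precursor cells.

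Of 11 regulators of the line, 7 passed in mature cells, 8 in newly formed cells and 5 in precursor cells, and 5 of the 11 had served as class markers. Olig1, at a log2 ratio of 5.92, Nkx6-2 at 5.82, Sox10 at 4.89 and Myrf at 4.67, all transcription factors, led in mature cells. Nkx2-2 at 0.57 and Tcf7l2 at -0.89, factors of earlier stages, stood lowest there. Nkx2-2 was 4.82 CPM in mature cells against a median of 0 CPM in the other classes, so the added 10 CPM hold down its ratio. Myrf was 40.6 CPM in precursor cells, 284 CPM in newly formed cells and 329 CPM in mature cells, and Nkx6-2 was 1.27 CPM, 144 CPM and 670 CPM in the same order.

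Among the genes whose profile over the 32 clusters of at least 50 cells was most like the mean of the 9 were Nkx6-2, with a Pearson correlation of 0.98, Hapln2 at 0.97, and then NEWGENE_1310680, Pex5l, ENSRNOG00000066012, Apod, Nkain2 and Eya4 at 0.95 to 0.97. Among the 9 themselves, the correlation of each gene with the mean of the other 8 lay between 0.98 for Mog and 0.81 for Cnp. Mal was the next lowest at 0.85. These correlations describe clusters that share libraries and depth.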

How the data were processed

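Counts came from 3′ single-cell libraries (Chromium v3) of rat hippocampus. The deposited values are UMI counts, whole numbers not scaled, which the authors produced with Cell Ranger 7.0.0, per the file headers. The build named in the submitters' processing notes is a mouse one, mm10, while all gene identifiers of the 9 genes are rat Ensembl identifiers. The annotation, the counting of intron reads and any equalising of depth were not given in the sources used here. Levels of the 9 genes depend on those choices.

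Of 58078 barcodes, 48704 passed minimums of 500 UMIs and 200 genes and a limit of 20% of UMIs from mitochondrial genes. Doublets were scored per library against simulated pairs over 30 neighbours, and 3311 (6.80% of those that passed) were removed, at a rate of 0.8% per 1000 barcodes. Stray RNA was not subtracted. Cells were scaled to 10000 UMIs, log-transformed and clustered by the Leiden method (resolution 1.0, 15 neighbours, 30 components, 2000 variable genes without the 9). To be named, a cluster needed a mean log2 ratio of 1 or more over one class's markers, a lead of 1 or more over every other class, and 3 or more markers that met the rule. A marker met it with a log2 ratio of 1 or more over the median of clusters and detection in 10% of the cluster's cells. The details of this rule were settled after the data had been seen. This gave 37 clusters. Classes of fewer than 50 cells are not described.

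The UMIs of all cells in a class were added up and given as CPM. Genes with at least 50 UMIs entered the counts against the 4-fold bound (a log2 ratio of at least 2, with 10 CPM added). The step was tested on simulated data. Sequences are those of RefSeq, rat build GRCr8. The genes named beside the 9 are the 4 highest and 2 lowest of each list in mature cells and the 10 nearest profiles, except genes that are not reported here; Myrf, clusters 11 and 31 and the mural-like cells were singled out after their values were seen. The 9 genes and the lists were chosen with earlier results of these data known. Alternatives changed the clustering, the naming, the mitochondrial limit, doublet removal, thinning, the averaging and the libraries included. Tools were Python 3.11.15 with scikit-learn 1.9.0, SciPy 1.17.1, NumPy 2.4.6, leidenalg 0.10.2, python-igraph 0.11.9, pandas 2.3.3 and matplotlib 3.10.9.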

Additional observations from a re-analysis of the deposited data

Results flagged for a closer look

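Myelin genes were also found in data outside the kept cells. In the 9227 barcodes over the mitochondrial limit, the 9 genes summed to 886 CPM (876 to 896, counting error only), against 814 CPM over all kept cells. In 466 of them, or 5.05%, at least 1% of UMIs came from the 9 genes, against 869 kept cells, or 1.91%. From library 1 to 6 the summed level in these barcodes was 823, 1984, 1433, 381, 1922 and 206 CPM. In kept cells it was 702, 936, 974, 535, 1372 and 225 CPM, so libraries 4 and 6 went the other way. Among the 3311 barcodes removed as doublets the sum was 962 CPM, and 3.68% of them passed 1%.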

How the results depend on the processing

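All 9 genes stayed past the 4-fold bound in mature oligodendrocyte-like cells, and the median number found per mature cell stayed at 9, under every alternative run and with each library left out. The median share of mitochondrial UMIs in mature cells was 14.4%, 12.4%, 11.7%, 10.6%, 9.72% and 13.6% from library 1 to 6. It was thus above the alternative limit of 10% in all libraries but library 5. The share of cells called mature, 1.85%, was 2.69% when cells were named by their highest marker score, 2.17% with doublet-like barcodes kept and 0.922% at a mitochondrial limit of 10%. The share of the 9 genes' UMIs in mature cells, 61.96%, was 63.4%, 63.6% and 45.6% under the same settings, 64.0% with cells thinned, 62.4% without the 2 top cells of each class and 62.8% without astrocyte-like cluster 11. The summed level in mature cells, 27668 CPM, was 23128, 22391 and 28829 CPM under the first 3 settings. In microglia-like cells 382 CPM became 374.6, 387 and 390 CPM under them, 375.0 CPM at resolution 0.5, 397 CPM as a mean over cells and 390.5 CPM thinned. In astrocyte-like cells 244 CPM became 233, 236 and 229 CPM under them, 309 CPM as a mean over cells, 251 CPM thinned and 221 CPM without astrocyte-like cluster 11, an alternative chosen after seeing the data. Genes past the bound in precursor cells fell to 0 under the marker score, kept doublets, the 10% limit, resolution 0.5, the mean over cells, thinning and without the 2 top cells. Genes past it in newly formed cells, 9, numbered 3 under the marker score and 6 to 9 under the other settings. Genes past it in any class outside the oligodendrocyte line, 7, numbered 0 under the marker score, the 10% limit and thinning and 1 without the 2 top cells. The causes of the other changes were not tested.

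With each library left out in turn, the share of mature cells ranged over 1.39% to 2.04%, the share of UMIs over 55.2% to 63.7%, and the summed level over 27509 to 27896 CPM in mature, 358.5 to 397 CPM in microglia-like and 229 to 257 CPM in astrocyte-like cells. Genes past the bound ranged over 9 to 9 in mature, 8 to 9 in newly formed, 0 to 1 in precursor cells and 0 (without library 5) to 8 in the classes outside the line, and the number found per mature cell over 9 to 9. Under naming by marker score the summed level in the newly formed class was 1387 CPM, against 10729 CPM. Of 57 values for single classes and genes, 13 moved over 1.5-fold under that naming, 11 under the 10% limit, 9 thinned and 0 at resolution 0.5. No paired analysis was possible because no library is tied to a labelled sample.

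Depth limits the low levels: the 83 newly formed and 151 precursor cells carry few UMIs of Ermn and Opalin, and 1 or 2 cells can set them.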
